A study of Mus musculus with 23 samples.

Results

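The nuclear receptors measured here are 41 genes of a list of 44 that covers the receptors of lipids, bile acids, xenobiotics, steroids, thyroid hormone and retinoids, the orphan receptors and the hepatocyte receptors of the HNF4 family. A gene was taken by its symbol, older names included, and each of the 41 was matched by exactly 1 of the 22575 features of the array. Nr1h2, Nr2e3 and Nr3c2 were not analysed here. The liver came from 23 female C57BL/6 mice, 1 array per mouse, of 12 to 13 weeks by the sample labels. Of these, 8 mice had inhaled filtered air, 8 had inhaled carbon black (CB, Printex 90) and 7 had inhaled diesel exhaust particles (DEP, a reference material of diesel soot), each particle at 20 mg/m3 for 90 min per day on 4 days, and the labels place the sampling at 90 minutes after exposure. The paper gives a slightly younger age and a shorter time after exposure, and no mouse carried a genetic change. Exposures ran in 3 rounds. Round 1 held 4 mice (2 air, 1 CB, 1 DEP), round 2 held 12 (4 air, 6 CB, 2 DEP) and round 3, the last, held 7 (2 air, 1 CB, 4 DEP).

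Nuclear receptors are transcription factors that bind DNA, most of them as a pair with a partner receptor, and many are switched on by a small lipid-soluble molecule. In hepatocytes they set the rate of bile acid synthesis, fatty acid oxidation, lipid synthesis, gluconeogenesis and drug metabolism. A receptor is often kept at a steady mRNA level while its activity follows its ligand, so a level of receptor mRNA is not a level of receptor activity. The question of the series was whether particles that inflame the lung are followed by a change of gene expression in the liver.

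On each array the liver RNA carried Cy5, and a universal mouse reference RNA, a pool made from mouse cell lines, carried Cy3. The measurement is the log2 ratio of liver to reference after loess within each array, and a spot listed as absent has a signal that the authors flagged as not above background. The ratio depends on how much of a transcript the reference holds, so the order of the ratios below is not an order of mRNA levels and, as no array had its dyes exchanged, a dye effect on a spot remains in its ratio. Over the features with a listed gene the median Cy5 intensity of an array lay between 262 and 549, and the share of absent Cy5 spots between 17.3% and 46.6%. The number of Cy5 spots at the scanner maximum was 59 to 271 in air mice, 72 to 291 with CB and 61 to 422 with DEP, and no receptor spot was saturated on any array. Of the marker genes, the 12 hepatocyte markers had a median log2 ratio of 4.61 in the air group and all 12 were above 0, the 7 Kupffer cell markers 1.91, the 4 erythroid markers 2.91, the 9 endothelial 0.81, the 8 stellate 0.54 and the 5 bile duct markers −0.96. Of other cell types, the median was 0.72 for 10 pancreas acinar markers, 0.30 for 5 fat cell markers, 0.30 for 6 adrenal and gonad markers and 0.14 for 7 lymphocyte markers. In whole liver, fewer cells of a type and less RNA per cell cannot be told apart. None of the marker genes passed the test after CB or DEP.

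For 16 of the 41 receptors the log2 ratio was above 0 on every one of the 23 arrays. Of all 18688 features with a listed gene 18.9% did so. The ratio was below 0 on every array for 4 receptors (20.4% of all features). Of the 16, Rxrg and Esr2 had the Cy5 spot absent on 1 array each, and the reference spot absent on 6 and 11 arrays. A log2 ratio above 1 on every array was found for 5 receptors, Nr5a2, Nr1h4, Ppara, Nr1i2 and Nr1h3 (5.47% of all features), and below −1 for 3, Thra, Nr2f1 and Nr4a1 (4.67% of all features). In the mean of the air group, 10 receptors were above 1 (10.8% of all features). The Cy5 spot was present on all arrays for 20 receptors (39.9% of all features) and on at least 20 arrays for 26 (58.3% of all features). It was absent on at least 12 arrays for 11 (26.9% of all features) and on all arrays for 1, Rorb (4.74% of all features). As shares of the 41 receptors, 39.0% had a ratio above 0 on all arrays, 12.2% a ratio above 1 and 24.4% a mean above 1 in air. Each was larger than the share of all features, and 26.8% were absent on at least 12 arrays, close to that of all features. These shares were not tested.

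**Figure D1:**
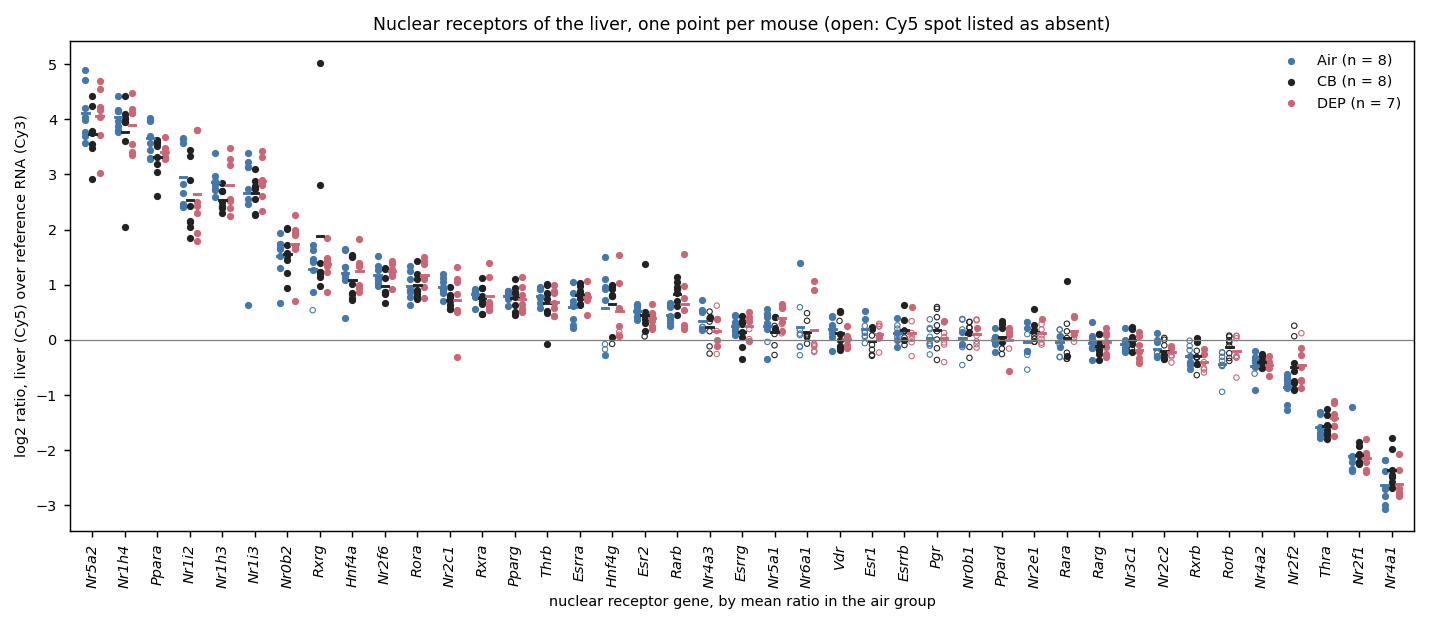
Log2 ratio of liver (Cy5) over reference RNA (Cy3) for the 41 nuclear receptors, 1 point per mouse, short bars for group means, open points for spots listed as absent in Cy5, with the receptors ordered by their mean in the air group. The receptors run from 4.11 (Nr5a2) to −2.63 (Nr4a1) in the air group, the CB and the DEP mice overlap the air mice for every receptor, and single mice stand apart for Rxrg, Nr1h4 and Nr1i3.

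Promoters are shown of the 4 receptors, among the 10 with a mean ratio above 1 in air, that hold the letters GTTAAT. Each is printed at the start with these letters. Receptors with higher ratios than Rxrg and Hnf4a, such as Ppara and Nr1i2, are not shown. The promoter of Nr4a1, the receptor with the lowest ratio, is added to set the letters side by side. RefSeq start sites (mouse build GRCm38.p6) were used for 37 of the 41 receptors, and 250 bases before each start were searched on both strands for GTTAAT, the core of the site of the hepatocyte factors of the HNF1 family, for AGGTCA, the core that many nuclear receptors read, and for TGCGTCA, a letter run like the site of the cAMP-responsive factors. The last was chosen after the Nr4a1 sequence had been seen. Capitals mark these letters or their reverse complement, and all sequences run 5′ to 3′ on the strand of the gene. The regions are chr1:136960449-136960698 (minus strand, the start farther upstream of a pair) for Nr5a2, chr10:89506659-89506908 (minus strand) for Nr1h4, chr1:167598112-167598361 (plus strand, the first start of a pair) for Rxrg, chr2:163546905-163547154 (plus strand, the second start of a pair) for Hnf4a and chr15:101266596-101266845 (plus strand) for Nr4a1.
Nr5a2: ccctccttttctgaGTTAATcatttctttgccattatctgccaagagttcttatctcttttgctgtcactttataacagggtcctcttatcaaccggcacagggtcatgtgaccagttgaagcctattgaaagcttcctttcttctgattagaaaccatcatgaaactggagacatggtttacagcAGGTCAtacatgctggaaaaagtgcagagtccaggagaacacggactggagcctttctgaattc
Nr1h4: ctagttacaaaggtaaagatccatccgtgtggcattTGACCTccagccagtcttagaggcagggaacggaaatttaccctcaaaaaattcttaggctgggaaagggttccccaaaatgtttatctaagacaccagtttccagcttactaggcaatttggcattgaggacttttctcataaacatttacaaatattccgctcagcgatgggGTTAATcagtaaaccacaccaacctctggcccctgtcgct
Rxrg: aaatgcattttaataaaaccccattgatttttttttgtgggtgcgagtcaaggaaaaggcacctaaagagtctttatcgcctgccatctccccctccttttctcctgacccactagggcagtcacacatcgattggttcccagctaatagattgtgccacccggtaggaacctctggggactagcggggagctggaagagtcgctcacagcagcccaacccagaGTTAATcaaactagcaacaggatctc
Hnf4a: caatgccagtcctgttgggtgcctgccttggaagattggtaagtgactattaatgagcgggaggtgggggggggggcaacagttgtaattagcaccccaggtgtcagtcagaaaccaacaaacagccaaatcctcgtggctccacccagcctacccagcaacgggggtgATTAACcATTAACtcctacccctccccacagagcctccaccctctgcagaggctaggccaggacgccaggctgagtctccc
Nr4a1: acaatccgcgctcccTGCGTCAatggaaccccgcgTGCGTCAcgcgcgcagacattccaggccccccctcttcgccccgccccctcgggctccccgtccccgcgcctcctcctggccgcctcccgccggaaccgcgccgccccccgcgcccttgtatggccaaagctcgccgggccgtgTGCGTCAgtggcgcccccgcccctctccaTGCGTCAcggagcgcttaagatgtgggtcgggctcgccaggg

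GTTAAT was held by at least 1 promoter of 4 of the 10 receptors with a mean ratio above 1 in the air group (Nr5a2, Nr1h4, Rxrg and Hnf4a) and of 1 of the other 27 (Thrb). Counted by promoter, it was held by 4 of 14 and 1 of 44, and by 6.43% of all 32851 promoters. AGGTCA was held by 3 of the 10 (Nr5a2, Nr1h4 and, at its other start, not shown, Rxrg) and by 6 of the 27. By promoter these were 3 of 14 and 7 of 44, beside 14.0% of all promoters. TGCGTCA was found 4 times in the Nr4a1 promoter, in no other promoter of the 37 receptors and in 1.75% of all promoters. The GC content was 43.2% in the printed Nr5a2 stretch and 44.4% in that of Nr1h4, 74.4% in that of Nr4a1, and had a median of 52.2% over the 14 promoters of the 10 receptors and of 61.0% over the 44 promoters of the others (52.4% over all promoters). Receptors with several starts have more stretches to search, and a match is one of letters, not of binding.

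Nr5a2 (NM_030676), the LRH-1 receptor that drives bile acid synthesis genes, had the highest ratio. Its log2 ratio ran from 3.56 over a median of 4.01 to 4.89 in air mice, from 2.92 over 3.76 to 4.42 with CB and from 3.02 over 4.18 to 4.69 with DEP. The group means were 4.11 ± 0.47 (SD, n = 8), 3.74 ± 0.46 (SD, n = 8) and 4.06 ± 0.56 (SD, n = 7), which is 17.2-fold over the reference in air, and the groups overlapped over most of their range. Where 3 values with ± follow below, they are the mean and SD of the log2 ratio of 8 air mice, then of 8 CB mice, then of 7 DEP mice.

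Nr1h4 (NM_009108) encodes FXR, the receptor of bile acids. It measured 4.04 ± 0.22 (SD, n = 8) in air, 3.76 ± 0.72 (SD, n = 8) after CB and 3.89 ± 0.44 (SD, n = 7) after DEP. CB mouse 59 was at 2.05, where the other 7 CB mice lay between 3.61 and 4.42. Nr0b2 (NM_011850), the small heterodimer partner SHP that FXR induces and that represses LRH-1, was lower on this scale, with 1.53 ± 0.39 in air, 1.56 ± 0.37 after CB and 1.73 ± 0.50 after DEP.

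Nr1i2 and Nr1i3 are PXR and CAR, the receptors that turn on drug metabolism. Nr1i2 (NM_010936) had a log2 ratio of 2.96 ± 0.57 in air, 2.54 ± 0.61 after CB and 2.65 ± 0.83 after DEP. Its reference spot was absent on 19 of the 23 arrays, all air arrays among them, so that the ratio in air is a bound: liver was at least 6.85-fold over the reference, against the lowest Cy3 signal listed as present on each array. Nr1i3 (NM_009803) had 2.66 ± 0.88 in air, 2.67 ± 0.29 after CB and 2.89 ± 0.38 after DEP, and 1 air mouse, 50, was at 0.64 where the other 7 ran from 2.46 to 3.39.

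Nr1h3 (NM_013839) is LXR alpha, the sterol sensor that induces lipogenesis and cholesterol export. It had 2.87 ± 0.24 in air, 2.53 ± 0.19 after CB and 2.81 ± 0.49 after DEP. Ppara (NM_011144), which turns on fatty acid oxidation in fasting, had 3.66 ± 0.31, 3.31 ± 0.35 and 3.41 ± 0.14. The other receptors of the PPAR family were nearer to the reference, with 0.80 ± 0.09, 0.76 ± 0.22 and 0.74 ± 0.24 for Pparg, the receptor of fat cell differentiation, and a mean in air of −0.00 for Ppard, whose Cy5 spot was absent on 4 arrays.

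Hnf4a (NM_008261), a receptor on which the hepatocyte programme rests, was modestly above the reference at 1.22 ± 0.39 in air, 1.09 ± 0.37 after CB and 1.24 ± 0.34 after DEP. The spot of its relative Hnf4g was absent on 5 arrays and had a mean of 0.58 in air. Nr2f6, an orphan receptor of the COUP family, had 1.18 ± 0.18, 0.97 ± 0.24 and 1.25 ± 0.18. Its relatives ran the other way: Nr2f1 had −2.11 ± 0.38, −2.09 ± 0.14 and −2.15 ± 0.20, and Nr2f2 had −0.86 ± 0.24, −0.50 ± 0.44 and −0.45 ± 0.37. Nr2c1, an orphan receptor also called TR2, had 0.97 ± 0.16, 0.72 ± 0.13 and 0.72 ± 0.54.

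The retinoid X receptors are the common partners of several, but not all, of the receptors above. Rxra, the main one of liver, had 0.82 ± 0.11 in air, 0.76 ± 0.24 after CB and 0.79 ± 0.34 after DEP, a small excess over the reference on every array. Rxrg had 1.29 ± 0.40, 1.88 ± 1.40 and 1.38 ± 0.29, and the spot of Rxrb was absent on 12 arrays with a mean of −0.30 in air. Among the retinoic acid receptors, Rarb had 0.46 ± 0.16, 0.83 ± 0.23 and 0.65 ± 0.50 and Rarg had −0.05 ± 0.20, −0.12 ± 0.17 and −0.04 ± 0.20, whereas the spot of Rara was absent on 16 arrays.

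The thyroid hormone receptors parted. Thrb, the form that carries most of the hormone's action in liver, had 0.79 ± 0.13 in air, 0.67 ± 0.36 after CB and 0.70 ± 0.23 after DEP. Thra, the form of heart and brain, had −1.58 ± 0.17, −1.57 ± 0.19 and −1.41 ± 0.23, below the reference in every mouse. Rora, a receptor that acts on the clock and on lipid genes, had 0.97 ± 0.24, 0.99 ± 0.24 and 1.19 ± 0.27. Vdr, the vitamin D receptor, was near the reference with 0.19 ± 0.21, 0.13 ± 0.29 and 0.02 ± 0.13.

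Nr3c1, the glucocorticoid receptor, was also near the reference, with −0.08 ± 0.14 in air, 0.00 ± 0.16 after CB and −0.18 ± 0.23 after DEP. Of the oestrogen receptors, Esr1, the form known from liver, had an absent Cy5 spot on 17 arrays, and Esr2 had 0.52 ± 0.11, 0.45 ± 0.40 and 0.40 ± 0.16 with a reference spot absent on 11 arrays. Esrra, a driver of mitochondrial genes, had 0.59 ± 0.29, 0.82 ± 0.14 and 0.78 ± 0.18, and Esrrg, its relative, had 0.26 ± 0.13, 0.14 ± 0.27 and 0.26 ± 0.20.

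Nr4a1 (NM_010444), an early response gene that responds to glucagon and stress, was the receptor farthest below the reference, with −2.63 ± 0.34 in air, −2.36 ± 0.32 after CB and −2.61 ± 0.29 after DEP. Its Cy5 spot was present on all arrays, with a median intensity of 1171 in air beside 7145 in the reference. Nr4a2 and Nr4a3, of the same family, were absent on 6 and 12 arrays and had mean ratios of −0.47 and 0.35 in air. The remaining receptors absent on at least 12 arrays (Nr0b1, Nr2c2, Nr2e1, Nr6a1, Esrrb and Pgr, besides Rorb) had means between −0.44 and 0.23 in air, and Nr5a1, the steroidogenic factor of adrenal and gonad, was absent on 7 arrays with a mean of 0.26.

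No receptor passed the test in any comparison. At an adjusted p under 0.05 in limma, 0 of the 41 were called after CB (0% of the 18688 features), 0 after DEP (0%), 0 between CB and DEP (0%), 0 for both particle groups against air (0%) and 0 between the last and the second round (0%). At an unadjusted p under 0.05 there were 6 receptors after CB, Rorb, Ppara, Rarb, Nr1h3, Nr2f2 and Esrra (5.94% of all features), 1 after DEP, Nr2f2 (4.82%), 1 between CB and DEP, Nr2f6 (3.44%), 5 for both particle groups, Rorb, Nr2f2, Ppara, Rarb and Esrra (6.04%), and 3 between the rounds, Nr4a1, Esrra and Esr2 (6.44%). For 0 receptors did the CB and air mice not overlap (0.0589% of all features) and for 0 the DEP and air mice (0.0107%). After CB 21 receptors had a positive and 20 a negative difference with a median of 0.01 on the log2 scale, and after DEP 19 and 22 with a median of −0.00. Of the 26 receptors with the Cy5 spot present on at least 20 arrays, 11 were higher and 15 lower after CB (median −0.06). After DEP 12 of them were higher and 14 lower (median −0.02). These splits were not tested. Over all features the median was 0.00 in both comparisons, and the adjusted p of the receptors in limma lay between 0.794 and 0.997 after CB, and between 0.997 and 1.00 after DEP.

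The precision of these differences was that of the number of mice. The 95% confidence interval of a receptor reached a median of 0.26 to either side of its difference after CB, and 0.27 after DEP, on the log2 scale. A 2-fold change lay within the interval for 2 receptors after CB, Nr1i2 and Rxrg, and for 0 after DEP. For the other receptors the intervals did not reach 2-fold in either direction, and a change inside an interval was not excluded by these arrays. For the 11 receptors whose Cy5 spot was absent on at least 12 arrays, the ratios come mostly from signals flagged as not above background. Their intervals therefore do not bound a change of the transcript. Among mice of a group the SD had a median of 0.26 over the receptors, from 0.15 for Nr2c2 to 0.87 for Rxrg.

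**Figure D2:**
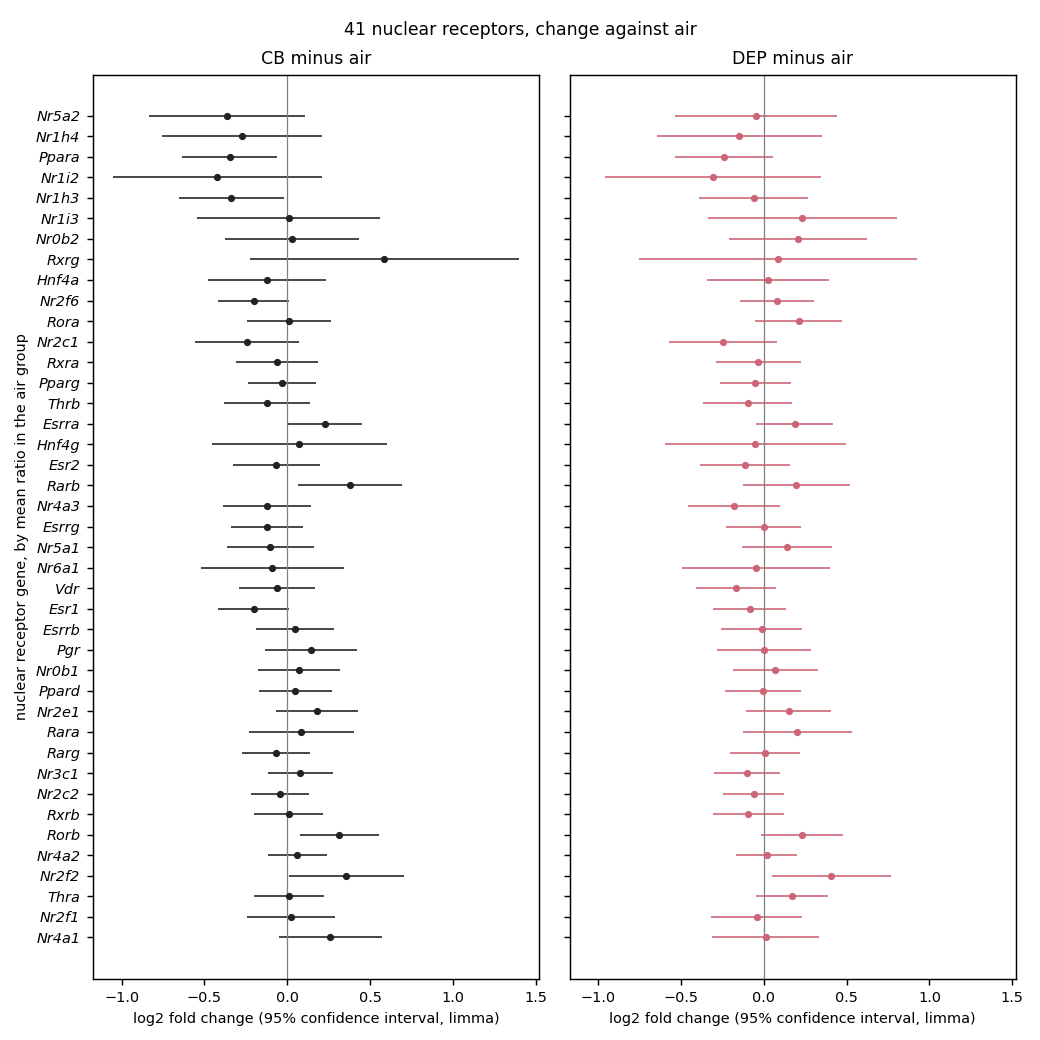
Log2 fold change against air of the 41 receptors after CB (left) and DEP (right), points with the 95% confidence interval from limma, in the order of the mean ratio in the air group. The differences lie between −0.42 and 0.59 for CB and between −0.31 and 0.41 for DEP, and no adjusted p was under 0.05.

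Ppara ran from 3.27 over a median of 3.63 to 4.02 in air, from 2.60 over 3.42 to 3.63 after CB and from 3.27 over 3.39 to 3.69 after DEP. Of the 8 air mice, 4 stood above all CB mice, and the others overlapped with them. Against air, Ppara differed by −0.35 (standard error 0.14, adjusted p = 0.827 in limma) after CB, −0.24 (standard error 0.14, adjusted p = 0.997) after DEP and −0.29 (standard error 0.12, adjusted p = 0.806) for both. Within the second round the CB difference was −0.19, within the last round −0.88 with 1 CB mouse, and −0.34 with the round as a block. Before normalization, the median Cy5 intensity was 12078 in air and 11169 after CB, and the median Cy3 intensity, of the same reference RNA on every array, 839 and 1176. With the Cy5 signal alone the CB difference was 0.22, the opposite sign.

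Nr1h3 ran from 2.59 over 2.84 to 3.39 in air, from 2.29 over 2.47 to 2.84 after CB and from 2.24 over 2.56 to 3.49 after DEP. Of the 8 CB mice, 5 lay below all air mice, and the DEP mice covered the whole air range. The log2 fold change after CB was −0.34 (standard error 0.15, adjusted p = 0.838 in limma), −0.47 in round 2 alone and −0.28 in round 3 alone, with 1 CB mouse. CB minus DEP, which shares the CB mice, was −0.27 (standard error 0.16, adjusted p = 1.00 in limma), −0.36 and −0.43 within the rounds, the last again with 1 CB mouse. With the Cy5 signal alone these differences were −0.10 and −0.04, and CB minus DEP was −0.16 without DEP mouse 57.

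Rarb, a retinoic acid receptor and itself a retinoid-induced gene, ran from 0.25 over 0.41 to 0.68 in air, from 0.45 over 0.89 to 1.14 after CB and from 0.20 over 0.55 to 1.56 after DEP. Of the 8 CB mice, 6 lay above all air mice, and the ranges overlapped between 0.45 and 0.68. Its difference on the log2 scale after CB was 0.38 (standard error 0.15, adjusted p = 0.827 in limma). That difference was 0.43 within the second round, 0.05 within the last, with 1 CB mouse, and 0.38 with the Cy5 signal alone. For both particle groups it was 0.29 (standard error 0.13, adjusted p = 0.819 in limma).

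Nr2f2, the COUP-TFII receptor of vessels and stroma, ran from −1.27 over −0.76 to −0.61 in air, from −0.92 over −0.66 to 0.26 after CB and from −0.88 over −0.48 to 0.12 after DEP. The highest 3 mice, 2 CB and 1 DEP, were those in which its Cy5 spot was listed as absent, and among mice with the spot present the means were −0.86 (n = 8), −0.72 (n = 6) and −0.54 (n = 6). The difference on that scale was 0.41 (standard error 0.18, adjusted p = 0.997 in limma) after DEP and 0.38 (standard error 0.15, adjusted p = 0.778) for both, and the DEP value was 0.15 in round 2 alone and 0.32 in round 3 alone. The median Cy3 intensity of this spot was 1046 in air and 475 after DEP, beside 682 and 576 in Cy5, all before normalization. With the Cy5 signal alone the DEP difference was −0.30, and that after CB, 0.36 in the ratios, was −0.33.

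Between CB and DEP the smallest p belonged to Nr2f6, at −0.28 (standard error 0.11, adjusted p = 1.00 in limma). Its difference was −0.31 within the second round, −0.57 within the last, with 1 CB mouse, and −0.26 with the Cy5 signal alone. Nr2f6 ran from 0.97 over 1.11 to 1.51 in air, from 0.66 over 0.87 to 1.31 after CB and from 0.93 over 1.29 to 1.43 after DEP and the groups overlapped. Nr3c1 followed with 0.18 (standard error 0.10) and Nr5a1 with −0.24 (standard error 0.13), both with an adjusted p of 1.00, and Rora had 0.21 (standard error 0.13, adjusted p = 0.997) after DEP. The Cy5 spot of Nr5a1 was absent in 4 CB and 2 DEP mice. Where it was present the means were 0.31 (CB, n = 4) and 0.47 (DEP, n = 5). Rorb had the smallest unadjusted p after CB, 0.0117 (adjusted p = 0.794), but its Cy5 spot was absent on all arrays, and no fold change is given for it.

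**Figure D3:**
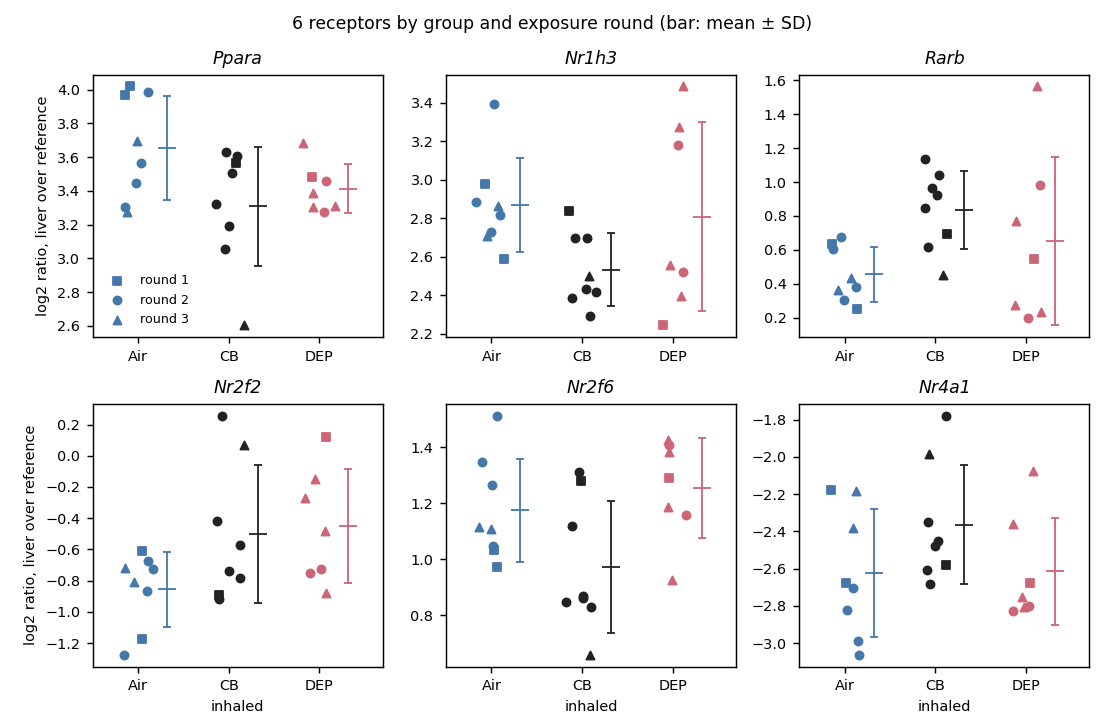
Log2 ratio of liver over reference for 6 receptors by group, 1 point per mouse with the exposure round as its shape, and mean ± SD beside the points. Ppara and Nr1h3 lay lower after CB and Rarb and Nr2f2 higher in their means (with the Cy5 signal alone Ppara was 0.22 and Nr2f2 −0.33 after CB), every pair of groups overlapped, and Nr4a1 was higher in the last round (triangles) than in the second (circles) in its fitted mean.

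Nr4a1 was 0.43 higher in the last round than in the second (standard error 0.14, adjusted p = 0.702 in limma), Esrra −0.29 (standard error 0.10, adjusted p = 0.707), and Esr2 0.31 (standard error 0.12, adjusted p = 0.747). Nr0b1 had the next smallest p (adjusted p = 0.814) and is given no fold change, as its Cy5 spot was absent on 19 arrays. The Esr2 difference was 0.08 without CB mouse 835436, in which that receptor stood at 1.37. Of the 5 array sets, 1 held mice of the last round only, and the set was not in the fit of the rounds. The part of the array sets in the differences between the rounds was not tested. Nr4a1 after CB differed from air by 0.34 with the round as a block and by 0.50 within the second round. It was 0.41 with the array set as a block (adjusted p = 0.295 in limma), 0.09 with the Cy5 signal alone and −0.05 with median centring. Esrra also had a difference of 0.23 after CB, of 0.18 with the round as a block and of −0.10 with median centring. Within the second round it was 0.07, and within the last, with 1 CB mouse, 0.51.

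Single mice decided a few values. Rxrg was 0.59 higher in its mean after CB, −0.16 within the last round and 0.14 without CB mouse 835052, where its Cy5 intensity was 38470 beside 442 to 1238 in the other CB mice and its Cy3 intensity 1146 beside 166 to 363. In that mouse both channels of the spot were high. Nr1h4 after CB was −0.27, and −0.03 without CB mouse 59, whose Cy5 intensity was 738 beside 3918 to 8513. Nr1i3 after CB was 0.01, and −0.28 without air mouse 50, whose Cy5 intensity was 348 beside 2079 to 5922 in the other air mice. Leaving out DEP mouse 57, which stood lowest for Nr0b2, changed the DEP difference of that receptor from 0.20 to 0.38, and leaving out air mouse 443 changed it to 0.081.

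**Figure D4:**
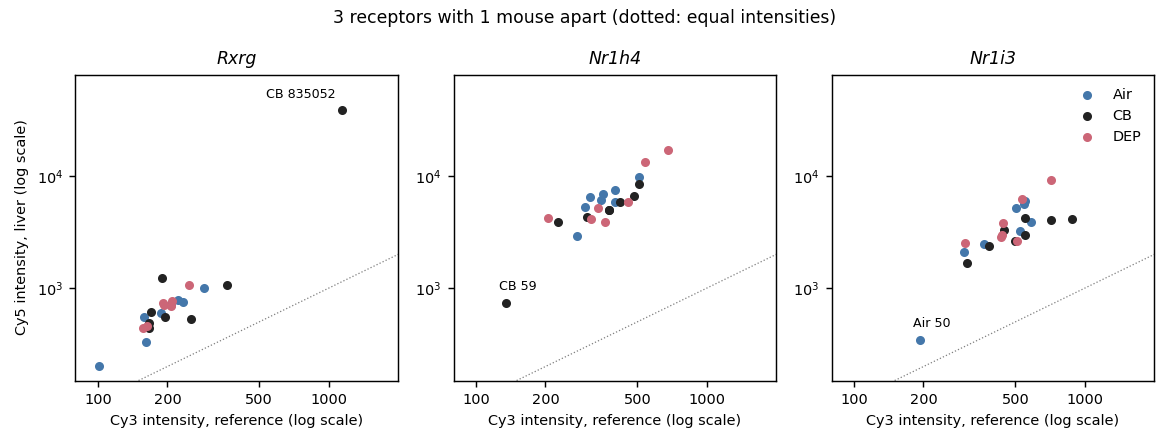
Cy5 (liver) against Cy3 (reference) intensity of the spots of Rxrg, Nr1h4 and Nr1i3, 1 point per mouse, both axes on a log scale, with the dotted line at equal intensity. CB mouse 835052 stands far above the others for Rxrg in both channels, and CB mouse 59 (Nr1h4) and air mouse 50 (Nr1i3) stand below in both.

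The ratios of several receptors went with the number of saturated spots on the array. Over the 23 mice the log2 ratio was set against the log2 number of saturated Cy5 spots for the 10 receptors with a mean above 1 and the 3 below −1 on all arrays, 13 relations with p adjusted over them by the Benjamini-Hochberg method. Nr1i2 had a Pearson r of 0.80 (p = 1e-05, the smallest the permutations can give, adjusted p = 0.00013) and a Spearman rho of 0.76 (p = 3e-05, adjusted p = 0.000195, permutation test), with 0.73 without the 2 arrays farthest from the median, 0.79 in round 2 alone and 0.91 in round 3 alone. Nr5a2 had an r of 0.76 (p = 4e-05, adjusted p = 0.00026) and a rho of 0.79 (p = 1e-05, adjusted p = 0.00013). Nr1h3 had 0.73 (permutation p = 8e-05, adjusted p = 0.000347) and 0.75 (permutation p = 8e-05, adjusted p = 0.000347). Hnf4a had 0.64 (p = 0.00084, adjusted p = 0.00218) and 0.70 (p = 0.00023, adjusted p = 0.000747), all two-sided by permutation. Nr2f1, below the reference, went the other way with −0.68 (p = 0.00012, adjusted p = 0.00039) and a rho of −0.70 (p = 0.0003, adjusted p = 0.00078). Without the 2 farthest arrays r was 0.70, 0.63, 0.56 and −0.73 for these 4. It was 0.78, 0.57, 0.82 and −0.63 in round 2 alone, and 0.84, 0.92, 0.56 and −0.71 in round 3 alone. The other 8 receptors had r between −0.25 and 0.34 with a smallest adjusted p of 0.228, and a smallest of 0.0514 for rho. The spread of all ratios on an array also differed, with an interquartile range of 0.69 at 59 saturated spots (air mouse 443) and 0.97 at 422 (DEP mouse 51). Features other than these 13 were not set against the number, so whether the relations are particular to receptors was not tested. For Nr1i2 the reference spot was absent on 19 of the 23 arrays. The median number of saturated spots was 177.5 in air, 103 after CB and 127 after DEP. With this number as a covariate the CB difference of Nr1h3 was −0.24 and that of Ppara −0.31.

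**Figure D5:**
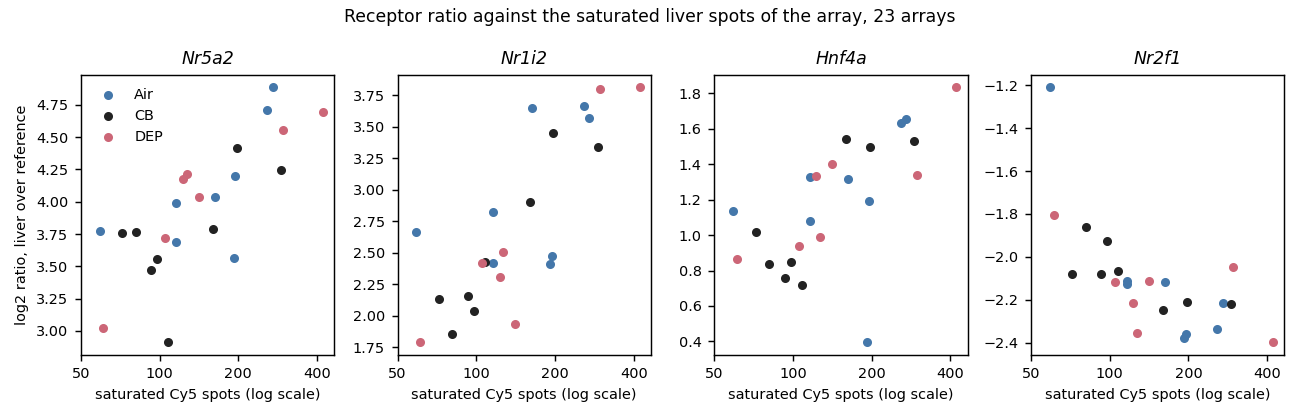
Log2 ratio of liver over reference for Nr5a2, Nr1i2, Hnf4a and Nr2f1 against the number of saturated Cy5 spots of the array (log scale), 1 point per mouse. The Pearson r is 0.76, 0.80 and 0.64 for the first 3 and −0.68 for Nr2f1, with mice of all groups at both ends.

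The genes that these receptors control were described from 12 lists, with the receptors themselves left out of them, and limma called 0 genes of any list after CB or DEP. Of all 18688 features, 9310 were lower after CB and 9340 after DEP. Of 19 measured targets of CAR and PXR, 13 were lower and 6 higher after CB (median −0.17) and 12 lower and 7 higher after DEP (median −0.19). Those with the smallest p were the glutathione transferase Gstt1 (−0.47, adjusted p = 0.621 in limma) and the P450 Cyp2b13 (−0.29, adjusted p = 0.837) after CB, and Cyp2c55 (−0.37) and Gstt1 (−0.34) after DEP, both with an adjusted p of 0.997. Of 15 targets of FXR and SHP, 13 were lower after CB (median −0.10) and 10 after DEP (median −0.09), led by the bile salt pump Abcb11 (−0.46 and −0.35) and the sterol hydroxylase Cyp27a1 (−0.46 and −0.38). Both spots were saturated on 11 arrays, and their adjusted p in limma was 0.698 and 0.720 after CB.

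Of 16 LXR targets, 8 were lower and 8 higher after CB (median −0.01), and 12 were lower after DEP (median −0.10). Apoe had the smallest p in both comparisons and is given no fold change, as its Cy5 spot reached the scanner maximum in all 23 mice. The next were the sterol transporter Abcg8 after CB (−0.29, adjusted p = 0.872 in limma) and fatty acid synthase, Fasn, after DEP (−0.58, adjusted p = 0.997, saturated on 7 arrays). Of 26 PPAR alpha targets, 13 were lower and 13 higher after CB (median 0.00), and 15 lower after DEP (median −0.07). They were led by the transcription factor Creb3l3 (−0.40, adjusted p = 0.788) and the peroxisomal enzyme Ehhadh (−0.25, adjusted p = 0.838) after CB and by the lipase inhibitor Angptl4 (−0.68) and the peroxisomal thiolase Acaa1a (−0.29) after DEP, both at 0.997 and saturated on 5 and 3 arrays.

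Of 23 glucocorticoid receptor targets, 19 were lower after CB (median −0.12) and 16 after DEP (median −0.09), with Got1, an aminotransferase, at −0.48 (adjusted p = 0.447 in limma) and −0.35 and Serpina6, the corticosteroid carrier, at −0.57 after CB (adjusted p = 0.634), with their spots saturated on 9 and 6 arrays. Angptl4 is on this list too. Of 18 targets of HNF4A and LRH-1, 16 were lower after CB (median −0.21) and 13 after DEP (median −0.14). The smallest p belonged to Apoa2 and Alb, saturated on all 23 arrays and given no fold change, and to the apolipoprotein Apoc2 (−0.78, adjusted p = 0.798, saturated on 5 arrays) after CB. Of 12 thyroid hormone targets, 8 were lower after CB (median −0.05) and 6 after DEP (median −0.09), with the lipogenic gene Thrsp at −0.72 (adjusted p = 0.621) and −0.66 (adjusted p = 0.997), Hr, a corepressor absent on 13 arrays and given no fold change, after CB, and Serpina7, the thyroxine carrier, at 1.38 after DEP (adjusted p = 0.997). Of the hepatocyte markers 9 of 12 were lower after CB (median −0.29) and 10 of 12 after DEP (median −0.20), and 9 of the 12 were saturated on some arrays. The part of saturation in the lower values of the target lists was not tested. Other genes with a high ratio in liver were not counted, so whether the lower values are particular to receptor targets was not tested either.

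The medians of the last 5 lists lay between −0.12 and 0.11. Of 21 coregulators, 16 were higher after CB and 12 after DEP (medians 0.02 and 0.00), and Ep300, Tbl1x (after CB) and Ncoa2 (−0.15 after DEP) had the smallest p. The spots of Ep300 and Tbl1x were absent on 21 and 22 arrays and are given no fold change, and that of Ncoa2 was absent on 7. Of 9 retinoid targets 5 were higher after CB and 6 after DEP (medians 0.03 and 0.08), with Rdh16 at −0.31 and Dhrs3 at −0.11 after CB and Crabp2, absent on 9 arrays, at −0.29 and Dhrs3 at 0.12 after DEP. Of 12 targets of the oestrogen, ERR, ROR and vitamin D receptors 8 had a negative difference after CB and 5 after DEP (medians −0.08 and 0.08), with Pdk4 at −0.60 and Avpr1a at 0.40 after DEP. Greb1 and Arntl had the smallest p after CB, but their Cy5 spots were absent on 21 and 19 arrays, and no fold change is given. Of 12 early response genes, partners of the NR4A receptors in time, 10 had a negative difference after CB and 5 after DEP (medians −0.09 and 0.06), with Jun at 0.35 and Junb at −0.32, and Myc at −0.38 and Jun at 0.23. The clock receptors Nr1d1 and Nr1d2, outside the list of 44, had −0.12 and −0.13 after CB and 0.26 and −0.04 after DEP. The smallest adjusted p in these 5 lists was 0.861 after CB and 0.997 after DEP in limma.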

How the data were processed

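The authors hybridised liver RNA (Cy5) and reference RNA (Cy3) to 1 array per mouse and deposited the intensity of each channel, with no background subtracted, and a log2 ratio made by lowess in R 2.4.1, with flags of absent spots. For this report each array's deposited intensities were turned into log2 ratios by loess (limma 3.58.1, R 4.3.3), using 18688 features that name a gene out of 22575. Over the receptors they differed from the deposited log2 ratios by a median of 0.0529 and at most 0.575. No feature was filtered. All 3 groups were fitted in 1 model (lmFit, eBayes), with p adjusted by the Benjamini-Hochberg method over the 18688 features. Relations to saturated spots used 100000 permutations. The test was checked on simulated data.

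The receptors, lists and alternatives were chosen with earlier results of these data known. Named are the receptors whose Cy5 spot was present on at least 20 arrays, per comparison the 4 with the smallest p, and per list the 2 genes with the smallest p after CB and after DEP. The labels number separate mice. Alternatives were the deposited ratios, median centring, Aquantile, quantile normalization, normexp (offset 50), the Cy5 signal alone, a filter on dim features, all features, mean of features, round, array set (5) or exposure day (6) as a block, single rounds, the groups compared alone, array weights, saturated spots as a covariate and leaving out each mouse. Promoters are those of RefSeq. The number of arrays limits the precision.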

Additional observations from a re-analysis of the deposited data

Results flagged for a closer look

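Of 123 groups of mice (41 receptors in 3 groups), 10 had 1 mouse far from the others, and chance alone marks about 1 group in 20. Below the others of their group stood DEP mouse 57 for Nr0b2 (0.71, others 1.64 to 2.26), CB mouse 59 for Nr1h4 (2.05, others 3.61 to 4.42), air mouse 50 for Nr1i3 (0.64, others 2.46 to 3.39) and for Rorb (−0.94, others −0.47 to −0.22, spot absent), air mouse 443 for Rxra (0.57, others 0.78 to 0.92) and air mouse 835432 for Hnf4a (0.40, others 1.08 to 1.65). Above the others stood air mouse 443 for Nr2f1 (−1.21, others −2.38 to −2.11), CB mouse 59 for Rara (1.07, others −0.34 to 0.29), CB mouse 835052 for Rxrg (5.02, others 0.98 to 2.81) and CB mouse 835436 for Esr2 (1.37, others 0.06 to 0.51). In the deposited log2 ratios the same spots were at 4.45 for Rxrg, 2.06 for Nr1h4 and 0.65 for Nr1i3. The 3 arrays named for more than 1 receptor were those of air mice 50 and 443 and CB mouse 59.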

How the results depend on the processing

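The count of receptors called was 0 in all 4 comparisons and between the rounds under every alternative and without any 1 mouse, with 1 exception. With median centring of each array 1 receptor, Ppara, passed after CB (−0.62, adjusted p = 0.0290 in limma), among 285 features, where the centring itself moved the median of all features by −0.11. Directions turned for these values of no call: with the Cy5 signal alone, Ppara after CB (0.22), after DEP (0.017) and for both particle groups (0.12), Nr2f2 after CB (−0.33), after DEP (−0.30) and for both (−0.32), and Nr3c1 between CB and DEP (−0.21). With median centring, Esrra after CB was −0.10 and Nr4a1 after CB was −0.05. Within the second round Rora after DEP was −0.026, and within the last round Rxrg after CB was −0.16, and Nr3c1 and Nr5a1 between CB and DEP were −0.010 and 0.038. Nr1i3 after CB (0.01) was −0.30 with median centring, −0.095 within the last round, −0.021 with normexp and −0.012 with the deposited ratios. The last round held 1 CB mouse. The cause of the turned directions was not tested. The number of receptors at an unadjusted p under 0.05 was between 2 and 12 for CB and between 1 and 2 for DEP over the alternatives, and without 1 mouse between 3 and 7 and between 0 and 2. Aquantile normalization leaves the ratios unchanged, so quantile normalization of both channels was added, and it and the covariate were chosen after seeing the data. No paired analysis was possible because the mouse numbers are not shared between groups.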
